A study of Mus musculus with 18 samples.

Results

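Genes for 8 transcription factors that build or maintain the kidney (Pax2, Pax8, Lhx1, Emx2, Wt1, Tfcp2l1, Foxi1 and Grhl2) were examined for binding by BMAL1, a subunit of the circadian clock activator. They were named by symbol, and all 8 were found among 21883 protein-coding genes of the RefSeq annotation of mouse assembly GRCm38.p6. A BMAL1 peak was assigned to a gene when its centre lay inside the gene or within 50 kb of either end, which gave 12 peaks of 11366 in all. Of these, 6 came from kidney, 4 from heart and 2 from liver. ChIP-seq, which sequences the DNA that an antibody pulls down with a protein, had been done on 3 whole organs, liver, kidney and heart. All groups were C57BL/6 mice, wild type and aged 3 to 6 months, with 3 mice per tissue. They had free access to food and days of 12 h light and 12 h dark, and were sampled 6 h into the light phase. The groups differed only in tissue, and the same animals gave all of them. No clock mutant or other time of day was analysed here, so a peak is a site called in normal tissue at 1 time. Each tissue had 3 ChIP and 3 input libraries, and the deposited peak list of a tissue pools all of them, so no value below has an error between animals and no test between tissues was possible.

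Pax2 and Pax8 are paired-box factors that set up the nephric lineage, and Lhx1 and Emx2 are homeobox factors that act in the nephric duct and its outgrowth, the ureteric bud. Wt1 is a zinc-finger factor of nephron progenitors and, in the adult, of podocytes, the cells of the glomerular filter. Tfcp2l1, Foxi1 and Grhl2 act in the collecting duct: Foxi1 specifies the intercalated cells that handle acid and base, Tfcp2l1 takes part in patterning duct cell types, and Grhl2 maintains the epithelial barrier. BMAL1 binds with its partner CLOCK to E-boxes, short motifs of the form CANNTG, and prefers the palindrome CACGTG. Whole organs were used, so the cell type behind a peak is not known, and many of these factors are made by a small share of kidney cells.

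There were 4813 peaks for liver, 4034 for kidney and 2519 for heart. Each carried a whole-number score from the authors whose meaning is not given in the sources used here. Scores ran from 17 to 389 in liver, from 14 to 304 in kidney and from 16 to 375 in heart. They rank peaks within a list and are not compared between lists. Ranks are given as a percentile, the rank divided by the list length, so that a low percentile is a high score and tied peaks share the better rank. The heart input libraries carry kidney in 1 label and heart in their titles, which bears on the heart peaks below; its part in them was not tested.

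Sequence was at hand for the 3 peaks that lie in a RefSeq start-site window, from 250 bases before to 50 bases after an annotated start (build GRCm38.p6). They are shown because each of these peaks sits at a gene start and none holds CACGTG. The heart peak at the start of Tfcp2l1 is given whole (chr1:118627711-118627908, plus strand), with its CANNTG matches in capitals. For the kidney peak near Lhx1, the stretch outside the neighbouring gene Aatf is given (chr11:84513585-84513660, minus strand). For the kidney peak inside Pax2, the 30 bases at its centre are given (chr19:44756824-44756853, plus strand). The stretches at Aatf and Pax2 hold no CANNTG and have no capitals.
Tfcp2l1 heart peak: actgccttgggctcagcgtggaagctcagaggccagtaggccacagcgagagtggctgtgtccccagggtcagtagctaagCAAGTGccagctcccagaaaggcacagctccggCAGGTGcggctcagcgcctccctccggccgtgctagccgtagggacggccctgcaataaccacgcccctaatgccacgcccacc
Lhx1 kidney peak, part at Aatf: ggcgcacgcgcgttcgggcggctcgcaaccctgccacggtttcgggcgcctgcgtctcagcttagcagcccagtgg
Pax2 kidney peak, centre: tgcgcctgccttttccgggggcgggggccg

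The lineage factor genes had a nearby BMAL1 peak most often in the kidney list. Within 50 kb, 6 of the 8 genes had a kidney peak, against 33.1% of all protein-coding genes. A liver peak was found at 2 of 8 genes, against 34.0% of all genes, and a heart peak at 2 of 8, against 22.7%. Counting any of the 3 lists, 7 of 8 genes had a peak, against 50.7%. Emx2 was the gene with none. The median length of the lineage factor genes was 51.1 kb against 17.2 kb over all protein-coding genes, and a longer window can hold more peaks. Lhx1 (7.56 kb), Emx2 (6.67 kb) and Foxi1 (3.75 kb) are shorter than the median of all genes, and Lhx1 and Foxi1 had a kidney peak. Per length, the 1.2 Mb covered by the 8 windows held 5.0 kidney, 3.33 heart and 1.67 liver peaks per Mb. The windows of all protein-coding genes held 2.26, 1.4 and 2.62. The rates of the lineage factors rest on 6 kidney, 4 heart and 2 liver peaks, and all heart peaks except that of Wt1 lay at Tfcp2l1.

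The high kidney count rested on weak peaks. Among the peaks scoring in the upper 50% of their list, 2 of 8 genes kept a kidney peak (Lhx1 and Tfcp2l1), against 21.2% of all genes. The same setting left 1 gene with a liver peak (Pax2), against 22.4%, and 1 with a heart peak (Tfcp2l1), against 14.2%. Taking the 2519 top peaks of each list, the length of the heart list, left Lhx1 and Tfcp2l1 with a kidney peak, against 24.6%. Pax2 was left with a liver peak, against 23.1%. Heart, whose list stays whole here, had 2 of 8 genes (Wt1 and Tfcp2l1), against 22.7%. At this equal length kidney and heart thus had the same count of genes, with 2 kidney and 4 heart peaks. The 6 kidney peaks had scores from 14 to 39 with a median rank percentile of 74.9%, where 50% is the middle of the list. Kidney had the highest count under each of the other windows tried, all without a limit on score. The kidney peaks inside genes were weak, at 78.4% (Pax2) and 94.2% (Pax8 and Grhl2). Inside genes alone, kidney peaks were found at 3 of 8 genes (9.67% of all genes), liver peaks at 1 (10.2%) and heart peaks at 1 (6.83%). Within 10 kb the counts were 4 of 8 for kidney (18.0%), 1 for liver (18.1%) and 1 for heart (11.5%). Within 100 kb they were 8 of 8 for kidney (44.9%), 6 for liver (46.2%) and 3 for heart (33.4%).

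**Figure D1:**
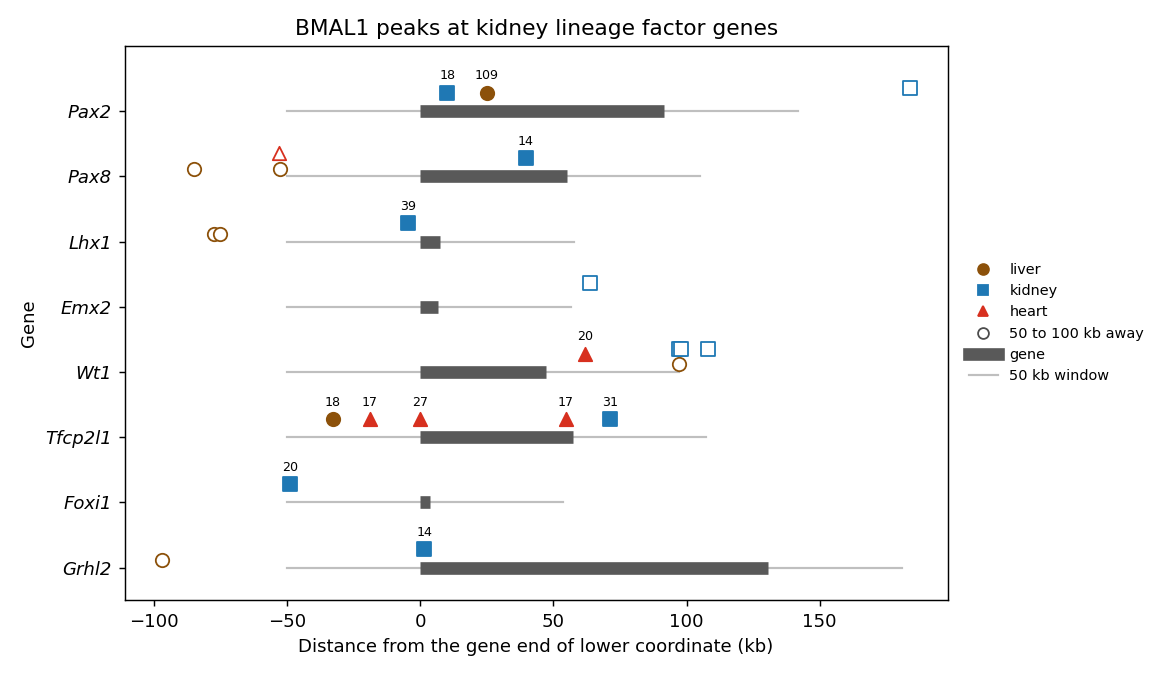
Peaks at the 8 genes, plotted by distance in kb from the gene end of lower coordinate. Thick bars are genes, thin lines the windows of 50 kb on both sides, filled symbols the 12 peaks with the authors' score above each, and open symbols peaks from 50 to 100 kb away. Within 50 kb, Pax2 and Tfcp2l1 are the genes with peaks of more than 1 tissue, and no filled symbols of different tissues coincide.

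None of the 12 peaks overlapped a peak of another tissue by 1 bp or more. Over all 9005 sites obtained by merging overlapping peaks of the 3 lists, 79.5% were found in 1 tissue, so that most sites anywhere are of this kind. Counted as single peaks, the share was 63.0% of 11366. It also varied with score. Among peaks of the same list and score, it was 3 of 10 for the Pax2 liver peak and 20 of 46 for the Lhx1 peak. At the weak end it was 208 of 233 for the Pax8 and Grhl2 peaks and 233 of 240 for the weakest Tfcp2l1 heart peaks. Site by site, different tissues had their peaks at different places even at the same gene. At Pax2, the kidney and liver peaks lay 14.8 kb apart. At Tfcp2l1, the closest peaks of different tissues were a liver and a heart peak 13.9 kb apart.

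Pax2 had the best-ranked peak of the group, and it was in liver. The peak lies inside the gene (chromosome 19, 44771515 to 44771756; gene 44746601 to 44838269), 25.0 kb from its lower end and 14.7 kb downstream of the nearest annotated start. Its score was 109, rank 371 of 4813, or 7.71%. The nearest heart peak to it was 235 kb away. Of the 380 liver peaks with a score of at least 109, 57 (15.0%) were found in liver only. The annotation table used gives no exons, so the place of this peak in an exon or intron is not stated.

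The kidney peak at Pax2 was weak and lay at a gene start. Its score was 18, rank 3164 of 4034 (78.4%), and it spans 44756745 to 44756932 on chromosome 19. Its centre is 68 bp upstream of the third of 3 annotated Pax2 starts (44756906) and 10.2 kb inside the gene. In 188 bases it holds no CANNTG and is 75.0% G or C. Of the 467 kidney peaks lying wholly in a start-site window, 69.6% held a CANNTG and 40.7% held CACGTG, and their median G and C content was 69.7%. No heart peak lay within 100 kb of Pax2; the nearest was 168 kb from the gene.

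Pax8, the close relative of Pax2, had 1 peak, in kidney and at the bottom of the list. It lies inside the gene (chromosome 2, 24460144 to 24460331), 15.4 kb downstream of the start, where the long non-coding RNA gene Gm13415 overlaps Pax8. The score was 14, the lowest in the kidney list, which 233 of 4034 peaks (5.78%) share. Just beyond the window, a site shared by liver and heart lay 52.8 to 52.9 kb from Pax8, with Psd4 as the nearest gene. Its scores were 26 in liver (rank percentile 74.3%) and 26 in heart (47.0%).

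Lhx1 had the best-ranked kidney peak of the 8 genes, with a score of 39 at rank 1249 (31.0%). The peak (chromosome 11, 84513473 to 84513660) is 4.41 kb past the end of Lhx1 that is opposite its start, and lies over the start of the neighbouring gene Aatf, inside which its centre falls. Aatf encodes a nuclear protein with roles in transcription and apoptosis, and by nearest gene the peak belongs to Aatf. It holds no CANNTG and is 70.2% G or C over its 188 bases. Liver and heart had no peak within 50 kb of Lhx1. Their nearest peaks were 75.3 kb away in liver, also nearest to Aatf, and 345 kb away in heart.

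Emx2 had no peak within 50 kb in the 3 lists. Its nearest kidney peak was 57.0 kb away, with its centre inside the gene 2700089I24Rik and a score of 18 (78.4%). That peak was found in kidney only and had Emx2 as the nearest protein-coding gene. The nearest liver peak was 114 kb away and the nearest heart peak 516 kb away.

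Wt1 had 1 peak within the window, and it was in heart. It lies 14.7 kb outside the gene (chromosome 2, 105188225 to 105188422) with a score of 20, rank 1624 of 2519 (64.5%), and Wt1 is the nearest gene. A site shared by liver and kidney missed the window narrowly, with centres 50.2 kb from Wt1 in both lists. It scored 30 in liver (66.0%) and 39 in kidney (31.0%), and its nearest protein-coding gene was Them7. A second kidney peak, of score 31 and found in kidney only, followed at 50.7 kb. With the window set slightly wider, Wt1 would therefore count as a gene with a kidney peak.

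Tfcp2l1 was the gene with the most peaks, 5 in all, and the only 1 of the 8 with a peak from each tissue. Over all protein-coding genes, 2415 of 21883 had a peak from each tissue within 50 kb, so this pattern is not particular to Tfcp2l1. Heart gave 3 of the 5 Tfcp2l1 peaks. The best-ranked heart peak lies at the start of the gene, its centre 136 bp upstream of the annotated start used for the sequence above and 114 bp outside the gene. It scored 27, rank 1123 of 2519 (44.6%). The other two heart peaks both scored 17 (78.4%), 1 of them inside the gene (chromosome 1, 118682560 to 118682757) and 1 at 19.0 kb from it (118608828 to 118609025), inside the neighbour Clasp1.

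The start peak holds 2 CANNTG matches, CAAGTG and CAGGTG, whose first bases are 153 and 120 bp upstream of the start. It holds neither CACGTG nor its variants CACGTT and AACGTG. Of the 178 heart peaks wholly in a start-site window, 43.3% held CACGTG, 48.9% held CACGTG or a variant, and 67.4% held a CANNTG. The kidney peak of Tfcp2l1 (118699123 to 118699310) lies 14.0 kb outside the gene on the far side from the start, with a score of 31 at rank 1729 (42.9%). The liver peak (118594915 to 118595156) lies 32.9 kb outside on the side of the start and inside Clasp1, with a score of 18 at rank 4543 of 4813 (94.4%). Clasp1 encodes a protein that stabilises microtubules.

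Foxi1 and Grhl2 each had 1 peak, in kidney. The Foxi1 peak (chromosome 11, 34155318 to 34155505) was the one closest to the limit of the window, 48.9 kb from the gene, with a score of 20 at rank 2878 (71.3%). Foxi1 is its nearest protein-coding gene, but the gene Gm12121 lies closer, at 6520 bp. The nearest liver and heart peaks to Foxi1 were 788 and 474 kb away. The Grhl2 peak lies inside the gene, 1.51 kb from its lower end (chromosome 15, 37234242 to 37234429), and had the lowest score of the kidney list, 14. The nearest liver and heart peaks to Grhl2 were 97.0 and 246 kb away.

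**Figure D2:**
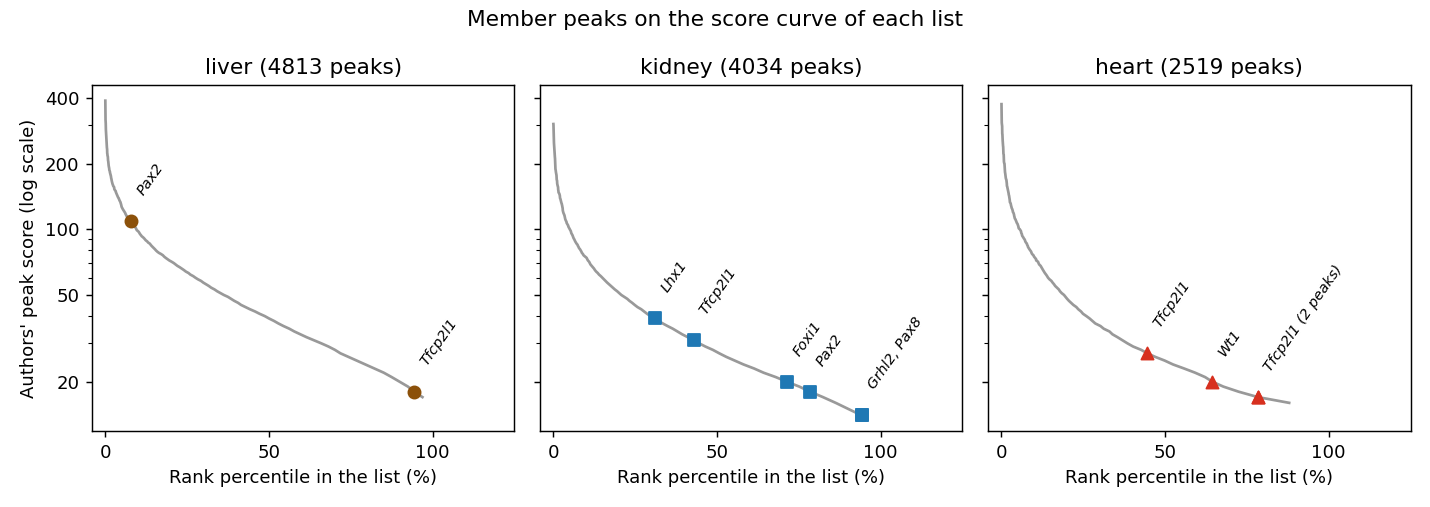
Authors' peak score on a log scale against rank percentile for each list. The grey line is the whole list and symbols are peaks at the 8 genes; the Pax2 liver peak, at 7.71%, stands high on its curve, and the kidney peaks run from 31.0% down to the lowest score.

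The distance to the nearest peak does not need a window. For the 6 genes with a kidney peak within 50 kb, the nearest kidney peak is the one counted above, so it is no separate support. Weak peaks count here as well, as the nearest kidney peaks ranked from 31.0% at Lhx1 and Wt1 to 94.2% at Pax8 and Grhl2. The peaks of 31.0% have Aatf and Them7 as their nearest protein-coding genes. All 8 genes had a kidney peak inside the gene or at most 57.0 kb away, with a median of 9.21 kb, against a median of 127 kb over 21627 protein-coding genes. For liver the distances ran from inside the gene to 788 kb, with a median of 64.0 kb against 117 kb. For heart they ran to 516 kb, with a median of 207 kb against 217 kb. The kidney peak was the nearest of the 3 lists, or tied at a distance of zero, for every gene except Wt1 and Tfcp2l1, where a heart peak was nearer.

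**Figure D3:**
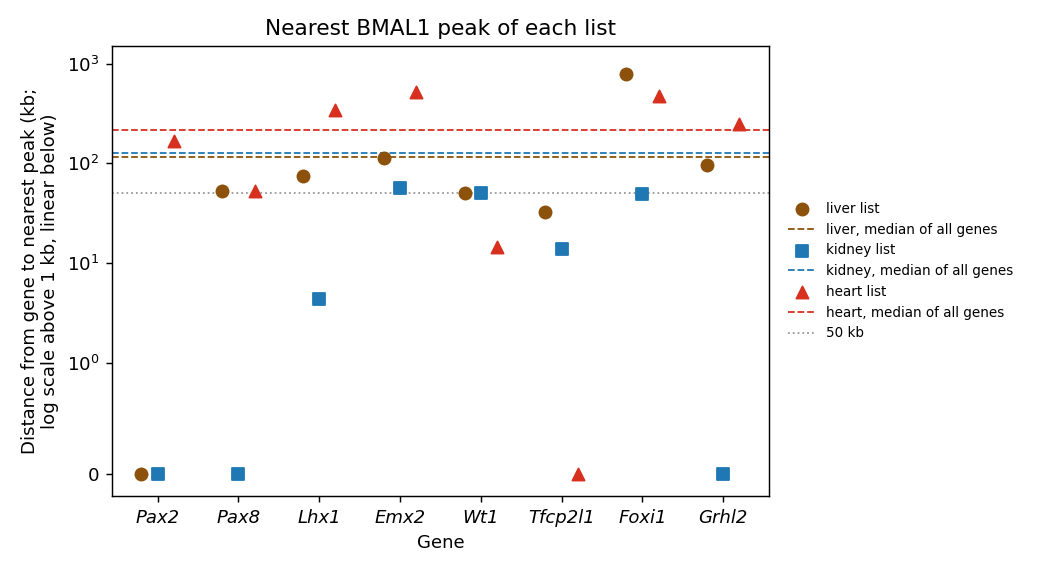
Distance in kb from each gene to the nearest peak of each list, on a log scale above 1 kb and linear below; 0 means that the peak centre lies inside the gene. Dashed lines are medians over all protein-coding genes and the dotted line is the 50 kb limit. Kidney squares stay at or below 57.0 kb, while liver and heart symbols reach 788 and 516 kb.

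Counting a peak only where the lineage factor was its nearest protein-coding gene left 9 of the 12 peaks. The 3 that went were the Lhx1 kidney peak and the liver and heart peaks inside Clasp1. In this count 5 of 8 genes had a kidney peak, against 13.9% of all genes. For liver it was 1 of 8 against 14.7%, and for heart 2 of 8 against 9.5%. The 5 kidney peaks left had a median rank percentile of 78.4%, as the best-ranked one, near Lhx1, was removed. The greater length of the lineage factor genes (median 51.1 kb against 17.2 kb) bears on this count too, and its part was not tested. By position, 5 of the 12 peaks lay inside their own gene and 3 more inside a neighbour (Aatf, and Clasp1 for a pair), making 8 of 12 inside a protein-coding gene. Over the whole lists this share was 59.0% for liver, 61.7% for kidney and 64.2% for heart.

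Start-site windows were present for 6 of the 8 genes, Pax2 with 3 of them, making 8 windows of 300 bases. None of these held CACGTG, which occurred in 7.15% of 32851 windows over all genes. None held its variants CACGTT and AACGTG either (11.4% of all windows held CACGTG or a variant), and none held a pair of CANNTG spaced by 6 or 7 bp (1.51%). Any CANNTG, a form that includes CACGTG, was found in 5 of the 8 windows, at Foxi1, Pax2, Pax8 and Tfcp2l1, against 72.3% of all. These forms read the same on both strands or as a set, so both strands were covered. A share of 7.15% of 8 windows is less than 1 window, and the count covers these windows only.

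Further kidney factors were counted the same way. Of 22 factors of early kidney development, 3 had a kidney peak within 50 kb (13.6%, against 33.1% of all protein-coding genes). A liver peak was found at 6 (27.3%, against 34.0%) and a heart peak at 2 (9.09%, against 22.7%). Sox8 had a site shared by kidney (41, 28.6%) and liver, nearest to Lmf1. The best peaks at Six2, a nephron progenitor factor (heart, 17, 78.4%), and Etv4 (liver, 19, 92.5%, nearest to Dhx8) were weak.

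Of 20 factors of nephron segments and podocytes, 6 had a kidney peak (30.0%, against 33.1% of all protein-coding genes). A liver peak was found at 6 (30.0%, against 34.0%) and a heart peak at 2 (10.0%, against 22.7%). The best-ranked site at Hnf4a and the site at Maf were shared by liver and kidney. Hnf4a, the nuclear receptor of proximal tubule and hepatocytes, had this site inside the gene, with scores of 140 in liver (3.93%) and 97 in kidney (5.43%), and its other 4 peaks were found in 1 tissue. Maf had a site 12.4 kb away with 122 in liver (5.61%) and 100 in kidney (5.03%). Elf3, an epithelial ETS factor, had a kidney peak at 4.95 kb (32, 41.1%).

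Of 9 paralogs of the lineage factors, 3 had a liver peak (Lhx5, Tfcp2 and Grhl1), 3 a kidney peak (Emx1, Tfcp2 and Grhl1) and 3 a heart peak (Foxi2, Tfcp2 and Grhl1). Each count is 33.3%, against 34.0% of all protein-coding genes for liver, 33.1% for kidney and 22.7% for heart. The best peak was near Grhl1, the relative of Grhl2, at a site common to all tissues with scores of 211 in kidney (0.521%), 186 in liver and 201 in heart. This site lies 33.8 kb from Grhl1 and is nearest to Klf11, a Kruppel-like factor gene. Grhl1 itself had 1 kidney peak inside the gene, of score 15 (90.1%). The relative of Tfcp2l1, Tfcp2, had a peak within 50 kb in each tissue, again at different sites, each nearest to another gene. The best peaks at Emx1 (kidney, 36, 34.9%, nearest to Sfxn5), Lhx5 (liver, 32, 61.5%, nearest to Sdsl) and Foxi2 (heart, 17, 78.4%) were found in 1 tissue. The median rank percentile of kidney peaks was 50% for the early factors (4 peaks), 52.7% for the segment factors (8 peaks) and 49.6% for the paralogs (4 peaks), against 74.9% for the 6 kidney peaks of the lineage factors.

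**Figure D4:**
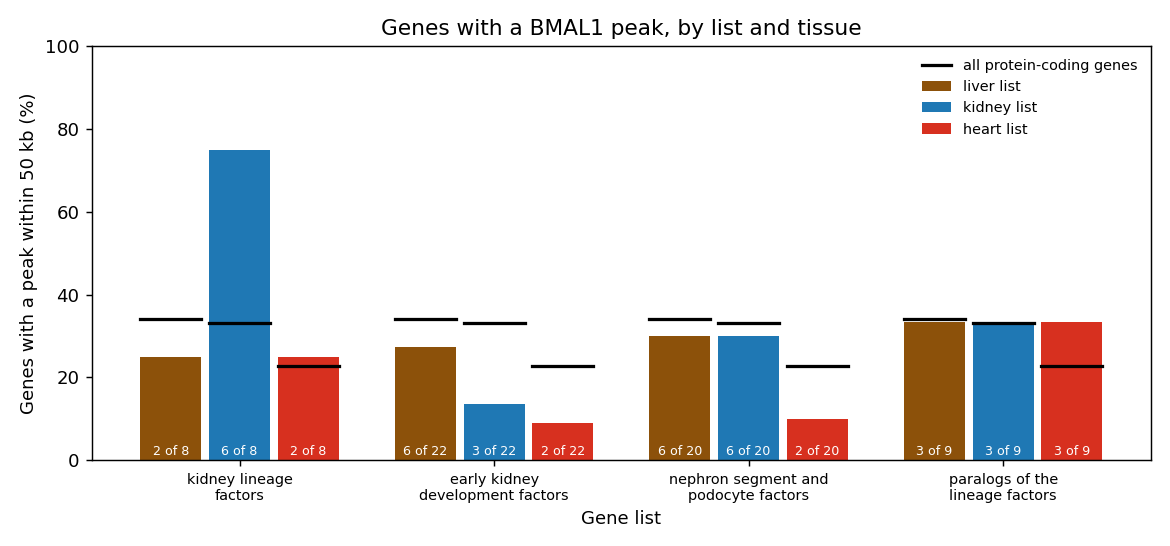
Share of genes with a BMAL1 peak within 50 kb, in percent, for the 8 lineage factors and 3 further gene lists, by tissue, with counts in the bars and the share over all protein-coding genes as black lines. The kidney bar of the lineage factors, 6 of 8, is above its line at 33.1%, and the kidney bars of the other lists are at 3 of 22, 6 of 20 and 3 of 9.

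Genes with the pattern of Lhx1, the gene with the best-ranked kidney peak, were sought over the 3 tissues by rank percentile. By nearest gene that peak belongs to Aatf, which limits what the pattern says of Lhx1. A kidney peak without a liver or heart peak within 50 kb was found at 1769 other protein-coding genes, and for 24 of them the best kidney peak had the same score of 39 as that of Lhx1. A closest few could not be chosen among these ties. Kidney-only genes of this kind made up 8.09% of all genes and 4 of the 8 lineage factors, Pax8, Lhx1, Foxi1 and Grhl2. This count depended on the limits. Within 100 kb it was 2 of 8, Emx2 and Foxi1, against 7.22% of all genes, and with the upper 50% of each list it was 1 of 8, Lhx1, against 5.26%.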

How the data were processed

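BMAL1 ChIP-seq libraries and their inputs came from liver, kidney and heart, and samples were grouped from their titles. Per the labels, DNA was fixed with 1% formaldehyde and read at 75 bp, and each deposited peak list was made by the authors from all libraries of a tissue. Bowtie2, SAMtools, HOMER and build mm10 are named in the submitters' processing notes, without versions or roles. The score that the authors deposited per peak is of unstated meaning, and depth is unknown. Lists from deeper or better enriched pools can hold more weak peaks, which bears on all counts between tissues.

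Coordinates, counted from 1, were set against RefSeq genes of GRCm38.p6, the assembly named mm10 elsewhere. Peaks counted as shared at an overlap of at least 1 bp. All protein-coding genes served as background. Window and overlap counting was tested on simulated peaks. Python 3.11.15, pandas 2.3.3 and numpy 2.4.6 were used. The genes, lists and windows were chosen with earlier results of these data known. Named genes were the 8 lineage factors, the gene nearest to each of their peaks, the 5 genes of each further list with the best-ranked peak (a few of them are not reported here), and 3 genes like Lhx1 where these could be chosen. Gene strand came from RefSeq start-site windows, which covered 6 of the 8 genes. For the other 9 peaks no sequence was used here.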

Additional observations from a re-analysis of the deposited data

How the results depend on the processing

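Counts moved with the window and with weak peaks, as small counts do. Kidney peaks numbered 6; they were 11 within 100 kb, 3 inside genes, and 2 in the upper 50% of the list or its top 2519. Genes with a kidney peak fell from 6 to 3 inside genes and to 2 with either limit on weak peaks. Liver peaks (2) and genes (2) came to 8 and 6 within 100 kb, and to 1 and 1 within 10 kb, inside genes, in the upper 50%, in the top 2519 and by nearest gene. Heart peaks (4) came to 2 within 10 kb and to 1 inside genes or in the upper 50%; genes with a heart peak (2) came to 1 in these settings. All 12 peaks were found in 1 tissue when sharing needed an overlap of 50% (63.6% of all peaks) or centres within 1 kb (61.0%), and so were 4 of 4 in the upper 50% (47.9%). Genes with a kidney peak alone (4) came to 2 within 100 kb and 1 in the upper 50%, alternatives chosen after seeing the data. The median rank percentile, by window of 10 kb, window of 100 kb and nearest gene, was 7.71, 62.6 and 7.71% in liver (51.0% as reported), 86.3, 71.3 and 78.4% in kidney (74.9%), and 61.5, 64.5 and 64.5% in heart (71.4%). E-box variants left the count of start-site windows at 0. No paired analysis was possible because each list pools the replicates, which also kept any replicate from being left out.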
